A study of Homo sapiens with 3 samples.

Results

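The 10 genes described here encode heat shock proteins of the cytosol and mitochondria: HSPA1A, HSPA1B, HSPA8, HSPH1, DNAJB1, HSP90AA1, HSP90AB1, HSPB1, HSPD1 and HSPE1. They were taken by symbol, and all 10 were present in each of the 3 count tables, which together list 43913 gene symbols. The tables hold Drop-seq counts of unique molecular identifiers (UMIs), each of which marks 1 captured transcript. One library was made per condition, namely MM.1S alone (a myeloma cell line of plasma cell type), HS-5 alone (a line of stromal cells from bone marrow) and the 2 lines after 4 h of coculture. The labels name no treatment for any of them, and the coculture was made to see how myeloma and stromal cells act on each other's transcription.

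Heat shock proteins are chaperones that bind unfolded or partly folded proteins. HSP70 proteins work in a cycle of ATP binding and hydrolysis that J-domain proteins (HSP40) start and nucleotide exchange factors reset, and they pass clients on to HSP90, which completes the folding of kinases and steroid receptors. In mitochondria, HSPD1 (HSP60) and its lid HSPE1 (HSP10) form a closed chamber for folding. Many of these genes are switched on by the transcription factor HSF1, which binds repeated GAA units in their promoters when cells are stressed, and plasma cells are known for a high load of protein folding.

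Positions are those of GENCODE release 29 on GRCh38. HSPA1A (ENSG00000204389.9, chr6:31815464-31817946) and HSPA1B (ENSG00000204388.6, chr6:31827735-31830255) are neighbours on the plus strand of chromosome 6, where HSP90AB1 (chr6:44246166-44253888) also lies. HSPD1 (chr2:197486581-197516737, minus strand) and HSPE1 (chr2:197499994-197503457, plus strand) lie on opposite strands, and the annotated span of HSPE1 falls within that of HSPD1. Their nearest RefSeq starts are 105 bases apart and point away from each other. HSP90AA1 is at chr14:102080738-102139699 and HSPH1 at chr13:31134974-31162388, HSPA8 is at chr11:123057489-123063230 and DNAJB1 at chr19:14514770-14529770, all on the minus strand, and HSPB1 is at chr7:76302544-76304295 on the plus strand.

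Promoter windows of RefSeq (GRCh38.p14), which run from 250 bases before to 50 after a start, were searched for 2 adjoining units of the heat shock element, GAANNTTC or TTCNNGAA. Each of these reads the same on both strands, and matches may overlap. All 10 genes had a window, 16 in all, and 9 of the windows (8 genes) held a match, against 13.5% of 35116 windows of all genes. A run of 3 alternating units was found in 4 of the 16 windows (those of 4 genes, HSPA8, HSP90AA1, HSP90AB1 and HSPD1), against 0.49% of all windows. HSPH1 and HSPE1 had no match in their windows. A match is a run of letters and no measurement of binding. The 250 bases before the start are shown, with matches in capitals, for the gene with the largest ratio in MM.1S cells (HSP90AA1), for the near-identical pair that differed between the lines (HSPA1A and HSPA1B), and for both genes of the mitochondrial chamber.
HSP90AA1, chr14:102087045-102087294, minus strand: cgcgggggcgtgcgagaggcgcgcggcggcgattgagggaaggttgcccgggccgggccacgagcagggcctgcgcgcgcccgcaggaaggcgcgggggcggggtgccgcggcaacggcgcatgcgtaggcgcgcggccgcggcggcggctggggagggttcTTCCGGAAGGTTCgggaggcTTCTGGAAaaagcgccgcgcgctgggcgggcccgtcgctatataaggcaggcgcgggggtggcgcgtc
HSPA1A, chr6:31815293-31815542, plus strand: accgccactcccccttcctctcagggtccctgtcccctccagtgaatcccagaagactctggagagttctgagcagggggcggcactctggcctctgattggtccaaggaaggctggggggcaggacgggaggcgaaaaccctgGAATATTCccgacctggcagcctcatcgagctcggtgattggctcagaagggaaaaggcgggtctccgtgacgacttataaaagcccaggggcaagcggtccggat
HSPA1B, chr6:31827488-31827737, plus strand: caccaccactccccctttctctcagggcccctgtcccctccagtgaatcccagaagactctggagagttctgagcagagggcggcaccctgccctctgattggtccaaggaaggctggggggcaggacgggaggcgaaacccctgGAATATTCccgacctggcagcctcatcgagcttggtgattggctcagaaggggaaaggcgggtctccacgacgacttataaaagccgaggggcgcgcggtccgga
HSPD1, chr2:197499841-197500090, minus strand: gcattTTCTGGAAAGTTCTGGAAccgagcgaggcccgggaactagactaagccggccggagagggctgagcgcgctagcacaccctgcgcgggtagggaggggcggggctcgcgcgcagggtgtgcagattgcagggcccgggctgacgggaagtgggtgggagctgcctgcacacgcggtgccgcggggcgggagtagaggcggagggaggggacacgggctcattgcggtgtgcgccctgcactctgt
HSPE1, chr2:197500129-197500378, plus strand: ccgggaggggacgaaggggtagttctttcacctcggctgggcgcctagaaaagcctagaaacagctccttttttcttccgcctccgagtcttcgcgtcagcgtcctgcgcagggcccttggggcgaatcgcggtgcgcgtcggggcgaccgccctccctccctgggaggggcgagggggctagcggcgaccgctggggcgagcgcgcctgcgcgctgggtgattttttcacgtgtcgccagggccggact
The windows of HSPA1A and HSPA1B matched at 277 of 299 aligned bases (92.6%), with the same single match 106 and 105 bases before the start. The HSPD1 window shown belongs to a start 539 bases from that of HSPE1. The other HSPD1 window, whose start is 105 bases from that of HSPE1, held no match, and neither did the other HSP90AA1 window. The first match in the HSPD1 window shown begins 294 bases before the HSPE1 start, outside the HSPE1 window.

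Barcodes with 200 or more detected genes were used. Line-specific genes were 81 genes at least 50 times higher in the MM.1S monoculture and 229 at least 50 times higher in the HS-5 monoculture. The heat shock proteins and the other gene lists compared below were barred from that choice. The plasma cell and stromal markers were not barred. Markers that met the rule, such as JCHAIN, COL1A1, COL1A2, COL6A1 and SPARC, helped to assign the cells. The coculture levels of these markers are thus no independent check of the assignment. Each cell of the coculture was given to a line by the line-specific genes. This left 1642 MM.1S cells with 1327889 UMIs and 2106 HS-5 cells with 2481883 UMIs, and 108 cells with UMIs of both lines were left out as doublets. The monocultures held 3947 MM.1S cells with 10433017 UMIs and 3732 HS-5 cells with 6142273 UMIs. Plasma cell markers marked the MM.1S cells (JCHAIN 6664 and 4143 UMIs per 1000000 (CPM) in monoculture and coculture, 0.98 and 29.8 CPM in HS-5 cells), but CD79A was at or near 0 and SDC1 was at 38.1 and 124 CPM in MM.1S and at 135 and 126 CPM in HS-5 cells. MZB1, CD38, TNFRSF17, IRF4 and POU2AF1 were under 10 CPM in HS-5 cells. XBP1 (419 and 52.4 CPM in MM.1S and HS-5 monoculture) and PRDM1 (36.8 and 15.0 CPM) were found in both lines. Of the stromal markers COL1A1, COL1A2, COL6A1 and SPARC marked HS-5 cells, TAGLN and COL3A1 were under 5 CPM in both lines, while FN1 was higher in MM.1S cells in monoculture and coculture (810 and 2224 CPM against 252 and 280 in HS-5 cells) and CAV1 higher in MM.1S monoculture (457 against 356 CPM) and lower in coculture (129 against 444 CPM). THY1 was higher in HS-5 monoculture (62.5 against 0.96 CPM in MM.1S), as were LGALS1 (3109 against 1847) and VIM (3859 against 426). S100A6 was alike in both monocultures (3085 CPM in HS-5, 2926 in MM.1S). Between 39 and 76 barcodes were shared by pairs of libraries. The median MM.1S cell had 2201 UMIs in monoculture and 669 in coculture, the median HS-5 cell 971.5 and 957. Mitochondrial transcripts made up 6.82% of UMIs in MM.1S monoculture and 4.05% in coculture, and 2.79% and 2.23% in HS-5 cells. With 1 library per condition, coculture and library cannot be told apart, no test was made, and 95% intervals (exact Poisson ones of CPM, exact binomial ones of ratios and shares) cover counting error only.

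Together the 10 genes took 0.615% of all UMIs in MM.1S monoculture and 1.46% in MM.1S cells of the coculture. HS-5 cells gave them 1.20% of UMIs alone and 1.02% beside MM.1S cells. The sum was higher in MM.1S cells of the coculture than in monoculture, and lower in HS-5 cells, with log2 ratios of 1.25 (1.22 to 1.27) and -0.24 (-0.26 to -0.22). In HS-5 cells that direction was set by HSP90AA1, which held 52.1% of the UMIs of the 10 genes in monoculture and 38.5% in coculture. The other 9 genes together were higher in HS-5 cells of the coculture, at 5756 CPM in monoculture and 6269 CPM in coculture (log2 ratio 0.12, 0.10 to 0.15), and in MM.1S cells they were at 5612 and 11140 CPM (0.99, 0.96 to 1.02).

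**Figure D1:**
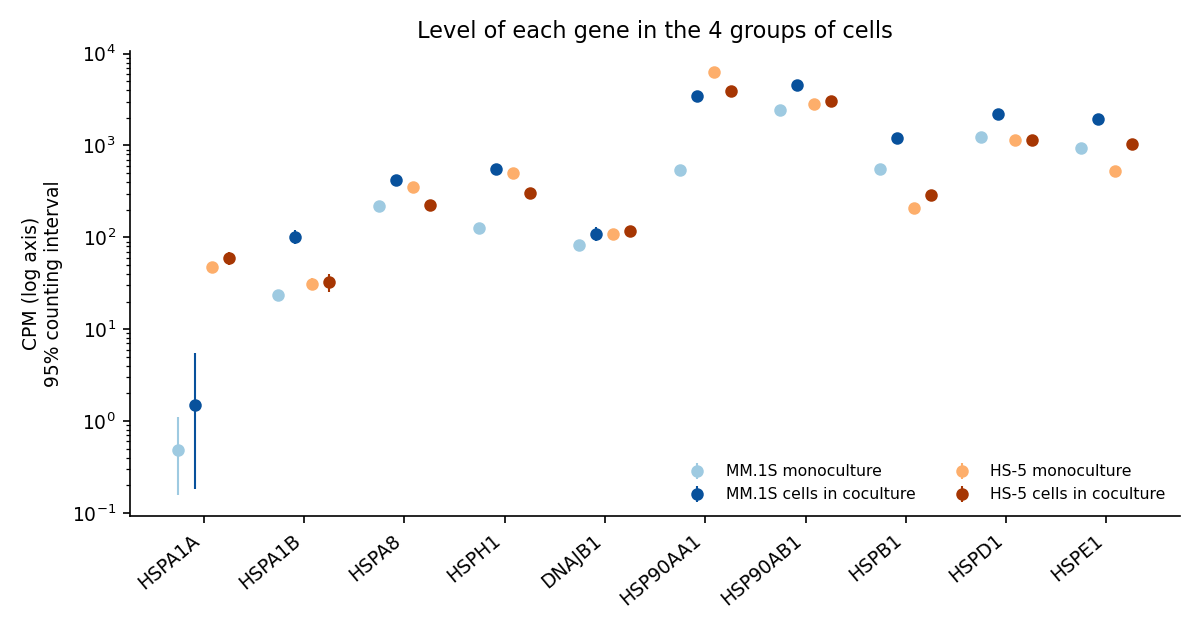
Level of each of the 10 genes in CPM (log axis) in each line alone and in coculture, with 95% counting intervals, 1 library per condition. In all genes but HSPA1A, where the intervals overlap, the MM.1S cells lie above their monoculture (DNAJB1 not with median-of-ratios scaling), and HSPA1A is near the floor in MM.1S cells and at 47.2 and 58.8 CPM in HS-5 cells.

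The cytosolic HSP90 genes differed in how they were distributed. HSP90AA1 encodes the inducible form of HSP90. It stood at 540 CPM in MM.1S monoculture (526 to 554), at 3445 CPM in MM.1S cells of the coculture (3345 to 3546), at 6266 CPM in HS-5 monoculture (6203 to 6329) and at 3920 CPM in HS-5 cells of the coculture (3843 to 3999). MM.1S monoculture was the low group and none of the 4 intervals overlapped. The coculture value of MM.1S cells was 6.37-fold that of monoculture, a log2 ratio of 2.67 (2.62 to 2.73), and 99.2% of all genes had a lower ratio. In HS-5 cells the log2 ratio was -0.68 (-0.71 to -0.64). Between monocultures HSP90AA1 was 11.6-fold higher in HS-5, whereas within the coculture library the log2 ratio of HS-5 over MM.1S cells was 0.19 (0.14 to 0.24). The size of the line difference varied with the depth of the cells. With 500 to 999 UMIs the HS-5 and MM.1S monocultures stood at 8862 and 466 CPM, with 2000 and more at 4759 and 571. In coculture the same ranges held 4604 and 3431 CPM, and 3151 and 3094 CPM.

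HSP90AB1 encodes the constitutive form. It stood at 2408 CPM in MM.1S monoculture, 4595 in MM.1S cells of the coculture, 2821 in HS-5 monoculture and 3049 in HS-5 cells of the coculture. The coculture's MM.1S cells were highest. Its log2 ratio was 0.93 (0.89 to 0.97) in MM.1S cells and 0.11 (0.07 to 0.15) in HS-5 cells.

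Among the HSP70 genes, HSPA8 encodes the constitutive protein HSC70 and HSPA1A and HSPA1B encode the same stress-inducible protein. HSPA8 was at 218 CPM in MM.1S monoculture and 424 in coculture, with a log2 ratio of 0.95 (0.82 to 1.09). In HS-5 cells it was at 355 CPM in monoculture and 222 in coculture, with a log2 ratio of -0.67 (-0.81 to -0.54) that lay near 0 among cells with 500 to 1999 UMIs. The order of the lines was thus opposite in the 2 culture forms, HS-5 higher in monoculture and MM.1S higher in coculture.

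HSPA1B was at 23.7 CPM in MM.1S monoculture (247 UMIs) and 101.7 CPM in MM.1S cells of the coculture (135 UMIs), a log2 ratio of 2.06 (1.79 to 2.41). In HS-5 cells it was at 31.3 and 32.2 CPM, and the log2 ratio of 0.04 (-0.35 to 0.43) had an interval that held 0. HSPA1A was near the floor in MM.1S cells, with 5 UMIs in monoculture and 2 in coculture, where 3 counts are worth 2.26 CPM. In HS-5 cells it was at 47.2 CPM in monoculture (290 UMIs) and 58.8 CPM in coculture (146 UMIs). Without the pseudocount its log2 ratio of HS-5 over MM.1S monoculture was 6.62 (5.38 to 8.26). The log2 ratio of HSPA1A in MM.1S cells was 1.65 without the pseudocount, with an interval from -1.74 to 4.26. With the pseudocount it was 0.76, and subtraction of free HS-5 RNA, put at 1.71% of these cells' UMIs, left that value at 0.03. Of the last 500 bases of the HSPA1A transcript, 20.4% of the 60-base windows also occur in HSPA1B, so counting can split or drop reads of this pair. Their sum was at 24.2 and 103.2 CPM in MM.1S monoculture and coculture and at 78.5 and 91.1 CPM in HS-5 cells.

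HSPH1 encodes HSP110, an exchange factor for HSP70. It was at 125 CPM in MM.1S monoculture, 549 in MM.1S cells of the coculture, 499 in HS-5 monoculture and 303 in HS-5 cells of the coculture. MM.1S monoculture was again the low group. Its log2 ratio was 2.12 (2.00 to 2.26) in MM.1S cells and -0.72 (-0.84 to -0.61) in HS-5 cells. DNAJB1, the J-domain partner of HSP70 in the stress response, was at 82.4 and 109 CPM in MM.1S cells and at 110 and 117 CPM in HS-5 cells. Its log2 ratio of 0.40 in MM.1S cells (0.14 to 0.66) was the smallest of the 9 genes measured, close to the 0.24 of the median gene. It became -0.08 with median-of-ratios scaling and -1.19 in cells with 500 to 999 UMIs.

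HSPB1 encodes the small heat shock protein HSP27, which holds unfolded proteins without ATP. MM.1S cells had more of it in both culture forms, at 554 CPM in MM.1S monoculture and 1208 in coculture against 210 and 290 in HS-5 cells. The log2 ratio of coculture over monoculture was 1.12 (1.04 to 1.20) in MM.1S and 0.46 (0.33 to 0.59) in HS-5 cells. Of the windows in the last 500 bases of its transcript, 18.4% also occur in the pseudogene HSPB1P1.

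The mitochondrial pair had unequal ratios in HS-5 cells. HSPD1 was at 1252 CPM in MM.1S monoculture and 2208 in coculture (log2 ratio 0.82, 0.76 to 0.88), and at 1151 and 1147 CPM in HS-5 cells (-0.01, -0.07 to 0.06). HSPE1 was at 947 CPM in MM.1S monoculture and 1944 in coculture (1.04, 0.97 to 1.10), and at 531 and 1051 CPM in HS-5 cells (0.99, 0.91 to 1.06). HSPE1 was the gene of the 10 with the highest ratio in HS-5 cells, and 98.7% of all genes were below it there. The size of that ratio differed with the depth of the cells. It was 1.03 in cells with under 500 UMIs and 2.55 in those with 500 to 999. With 1000 to 1999 UMIs it was 2.11, and with 2000 and more 0.74. Over 14 alternatives of the processing it ran from 0.85 to 1.74. HSPE1 shares 44% of the 60-base windows of its last 500 bases with other genes, most of them with the readthrough gene HSPE1-MOB4, so its counts are uncertain. HSPE1-MOB4 is not among the symbols of the count tables.

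**Figure D2:**
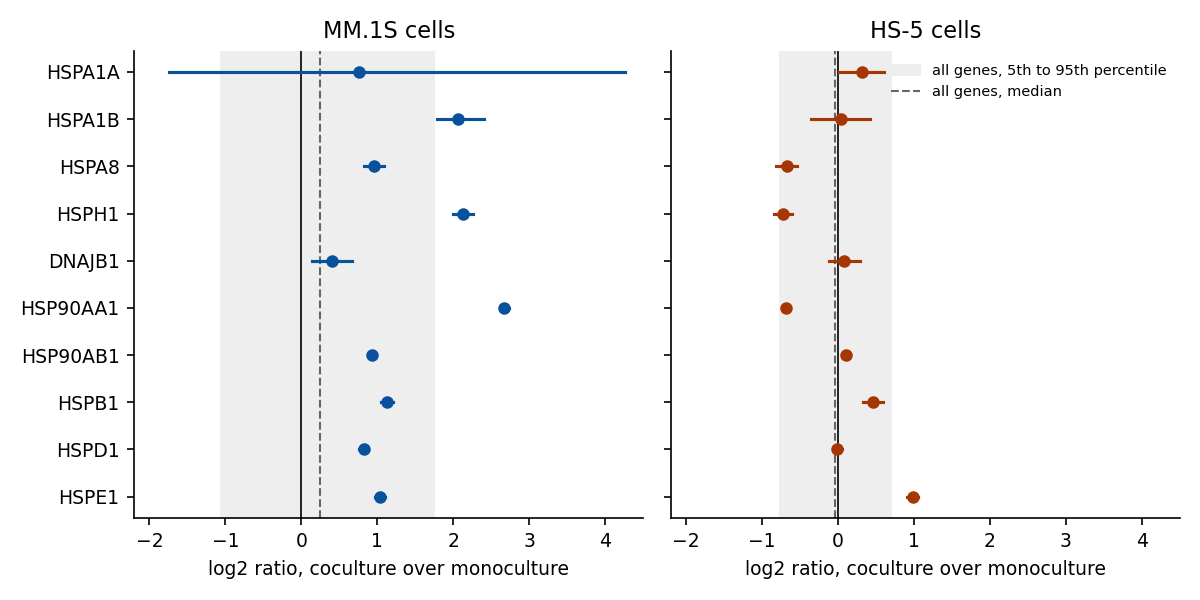
Log2 ratio of coculture over monoculture of each gene (points) with its 95% counting interval (lines), in MM.1S cells on the left and HS-5 cells on the right. The dashed line is the median of all genes with at least 10 CPM (0.24 and -0.04) and the grey band their 5th to 95th percentile. HSPA1B, HSPH1 and HSP90AA1 lie beyond the band in MM.1S cells and HSPE1 in HS-5 cells, and the interval of HSPA1A in MM.1S cells spans 0.

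Read as a group, the genes were counted where their mean over the 2 groups was at least 10 CPM, and a gene was called where its log2 ratio was past 1. The median of all 7838 such genes in MM.1S cells was itself 0.24, so values relative to it are 0.24 lower than those given. Of the 10 heat shock proteins, HSPA1A did not reach the minimum in MM.1S cells, and the 9 that did were all above 0 and above that median, where 62.0% of all genes were above 0. Their median log2 ratio was 1.04, and 5 of 9 were called higher (HSPA1B, HSPH1, HSP90AA1, HSPB1 and HSPE1) and 0 lower. Over 14 alternatives of the processing, HSPB1 was past 1 in 11 (lowest 0.64) and HSPE1 in 10 (lowest 0.55). Of all genes 19.0% were called higher and 5.81% lower. In HS-5 cells the median of the 10 genes was 0.06 against -0.04 for 8815 genes, 6 were above 0 and 4 below, and 0 were called, where 1.19% of all genes were called higher and 1.83% lower. Between monocultures, HSPA1A, HSPH1 and HSP90AA1 were called higher in HS-5 and HSPB1 lower, against 38.1% and 15.3% of 8734 genes, and the median of 0.40 was below the 0.56 of all genes. HSPA1A reached the minimum there only through HS-5 (47.2 CPM against 0.48 in MM.1S), so it could be called only higher. Each monoculture enters both its line's comparison and that between monocultures. In HS-5 cells HSPA1B, DNAJB1 and HSPD1 had ratios so near 0 that their sign changed under some alternatives (for HSPA1B in 1 of 14, a limit of 1000 UMIs per cell), as it did for HSPA1B, DNAJB1, HSP90AB1 and HSPD1 between monocultures. HSPA8, HSPH1 and HSP90AA1 had intervals above 0 in MM.1S cells and below 0 in HS-5 cells. In HS-5 cells 7.12%, 5.94% and 6.97% of all genes had a lower ratio, in that order. The difference between lines was smaller in coculture than in monoculture for 4 of the 10 genes, against 62.3% of all genes.

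Other genes of the chaperone system were described by lists. Median-of-ratios scaling moved the median of all genes in MM.1S cells from 0.24 to -0.23. The ratio of DNAJB1 went from 0.40 to -0.08 and that of HSPE1 from 1.04 to 0.55. Positive ratios in MM.1S cells up to that of DNAJB1, and somewhat above it, thus lose their sign there. Of the other cytosolic HSP70, HSP110, HSP40 and small heat shock protein genes, 11 of 22 reached 10 CPM in MM.1S cells, with a median log2 ratio of 0.75. HSPA4, an HSP110 relative (87 to 295 CPM, log2 ratio 1.75), DNAJA1, a J-domain protein (312 to 853 CPM, 1.45), DNAJC2 and HSPA14, which act at the ribosome, were the 4 called higher, none was lower, and the lowest were DNAJB4 (-0.69) and HSPB11 (0.16). In HS-5 cells the median of 15 was -0.04, with HSPB11, a part of the cilium's transport machinery in spite of its name, called higher (1.02) and HSPB8 lower (-1.06). HSPB8 reached the minimum of 10 CPM only through the HS-5 monoculture (18.7 against 8.46 CPM). HSPA14 (0.40) was next highest there and HSPA4L (-0.72), another HSP110 relative, next lowest. HSPA6, a strictly inducible HSP70 gene, was at 7.0 and 13.6 CPM in MM.1S cells and 1.14 and 1.21 CPM in HS-5 cells.

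The nucleotide exchange factors and BAG proteins had a median of 0.23 in MM.1S cells, at the level of all genes, with BAG3, which links HSP70 to autophagy and is an HSF1 target, the 1 called of 8 (5.08 to 24.1 CPM, log2 ratio 2.05). BAG3 reached the minimum of 10 CPM only through the coculture, so it could be called only higher. BAG1 (0.53) was next highest, and BAG4 (-0.28) and SIL1 (-0.05), an exchange factor of the endoplasmic reticulum, were lowest. In HS-5 cells BAG3 was at 92.5 and 102 CPM and, at 0.14, the highest before BAG6 (0.04), while BAG2 (-0.35) and SIL1 (-0.29) were lowest. The HSP90 cochaperones had a median of 0.64 in MM.1S cells over 14 genes and -0.10 in HS-5 cells over 15. In MM.1S cells CHORDC1 (1.43), NUDC (1.13) and PPID (1.05) were called higher and the lowest were TOMM34 (-0.34) and FKBP5 (-0.21). In HS-5 cells CHORDC1 (-0.46) and FKBP8 (-0.44) were lowest and PPID (0.27) and ST13 (0.20), an HSP70-binding cochaperone, highest. Of the 8 subunits of the TRiC/CCT chaperonin, which folds actin and tubulin, 7 were above the median of all genes in MM.1S cells, and the ratios ran from CCT4 (0.06) and CCT5 (0.29) to CCT7 (0.78) and CCT6A (0.95) with none called. In HS-5 cells 4 were above 0, from CCT4 (-0.38) and CCT6A (-0.14) to TCP1 (0.30) and CCT7 (0.41). Prefoldin, which hands clients to TRiC, went otherwise: its median was -0.14 in MM.1S cells, where its 6 subunits were all below the median of all genes, and 0.26 in HS-5 cells, where all 6 were above 0. In MM.1S cells PFDN5 (-0.51) and PFDN1 (-0.20) were lowest and PFDN6 (0.23) and PFDN2 (0.07) highest, and in HS-5 cells PFDN6 (0.06) and PFDN4 (0.13) were lowest and PFDN2 (0.63) and PFDN1 (0.38) highest.

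Among the other mitochondrial chaperones and proteases, LONP1, a matrix protease (log2 ratio 2.36), DNLZ, a helper of mitochondrial HSP70 (1.6), and HSPA9, that HSP70 itself (1.04), were called higher in MM.1S cells, with a median over 14 genes of 0.32 (-0.10 with a minimum of 50 CPM) and DNAJC19 (-0.73) and DNAJA3 (-0.41), a J-domain protein of mitochondria, lowest. In HS-5 cells HSPA9 was -0.37, DNAJC19 (0.71) and the protease subunit SPG7 (0.59) were highest and DNLZ (-0.75) and GRPEL2 (-0.71), an exchange factor, lowest. Of the heat shock transcription factors, HSF1 was at 15.0 CPM in MM.1S monoculture and 3.77 CPM in coculture, below the minimum of 10 CPM on average, and HSBP1, which binds HSF1, had a log2 ratio of 0.45 in MM.1S and 0.46 in HS-5 cells. The other factors that reached it were HSF4 in MM.1S cells (-0.11) and HSF2 in HS-5 cells (0.43). The chaperones of the endoplasmic reticulum had a median of 0.25 in MM.1S cells and 0.36 in HS-5 cells, over 15 genes each, with DNAJB11 (1.12) and SDF2L1 (1.05) called higher and DNAJB9 (-1.11) lower in MM.1S cells, where CALR (-0.63) was next lowest. In HS-5 cells PDIA6 was called higher (1.02), CALR (0.82), a lectin-like chaperone, was next, and DNAJC3 (-0.09) and MANF (-0.01) were lowest. HSPA5 (BiP), the HSP70 of that compartment, had log2 ratios of 0.67 in MM.1S and 0.70 in HS-5 cells. Of the other stress genes, GADD45B (2.33) and UBB (1.63), a polyubiquitin gene, were highest in MM.1S cells and PPP1R15A (-1.36) and DDIT3 (-0.60), both of the integrated stress response, lowest, with a median of 0.80. GADD45A (1.58) and NFE2L2 (1.23) were called higher too. UBB was also called in HS-5 cells (1.19), where SERPINH1 (0.26), the collagen chaperone, was next and TXNRD1 (-0.98) and HMOX1 (-0.65), both of the oxidative stress response, were lowest. The immediate early genes, which respond within minutes to handling and to growth factors, had a median of 0.48 in MM.1S cells, from BTG2 (-1.70) and MYC (-1.05) to JUNB (2.27) and SOCS3 (3.69). In HS-5 cells it was -0.20, from FOS (-2.91) and KLF6 (-0.66) to MYC (0.38) and SOCS3 (0.59). The part of the immediate early genes in the values of the heat shock proteins was not tested. Some list extremes rest on few UMIs. In MM.1S cells SOCS3 had 11 UMIs in monoculture and 34 in coculture, and PPP1R15A had 7 in coculture. SOCS3 reached the minimum of 10 CPM only through the coculture (1.05 and 25.6 CPM), and PPP1R15A only through the monoculture (15.0 and 5.27 CPM). FOS had 9 UMIs in HS-5 cells of the coculture and reached the minimum only through the HS-5 monoculture (33.9 against 3.63 CPM).

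**Figure D3:**
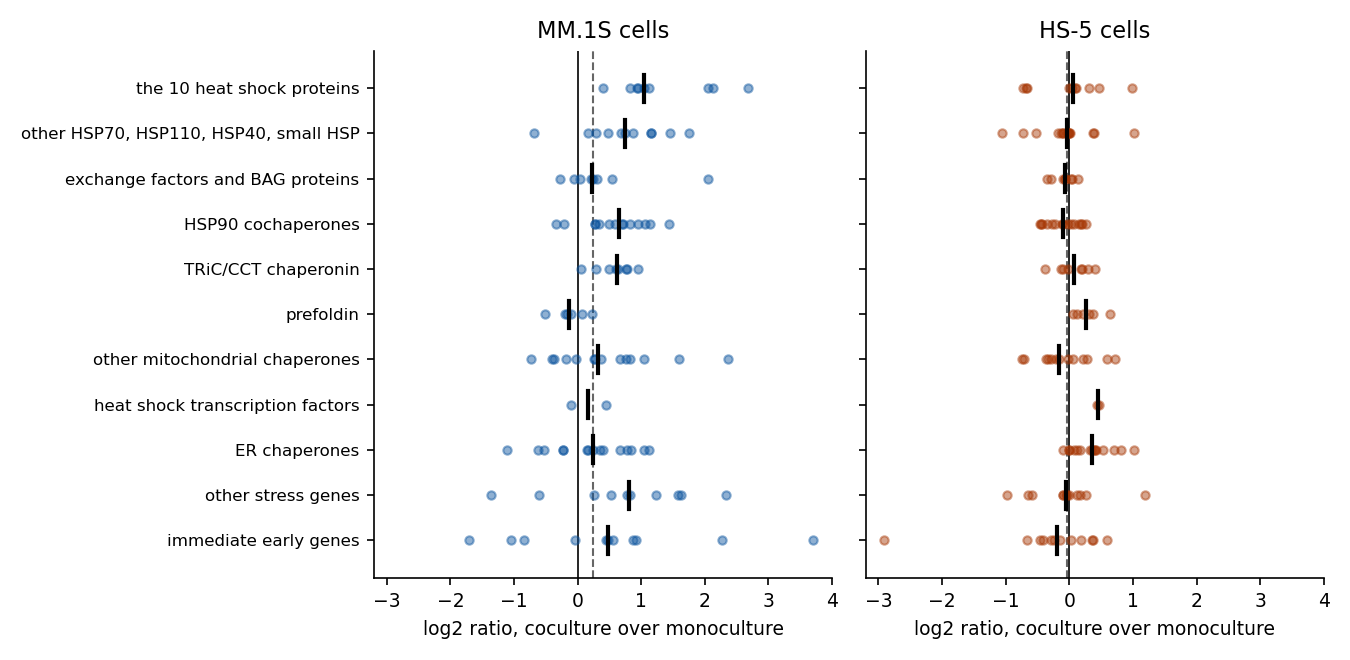
Log2 ratio of coculture over monoculture of each gene (points) and the median (black bar) of 11 gene lists in MM.1S and HS-5 cells, for genes that average 10 CPM or more. The dashed line is the median of all genes. The heat shock proteins have the highest median in MM.1S cells (1.04) and prefoldin the lowest (-0.14). In HS-5 cells the median of the heat shock proteins is 0.06, with single genes from -0.72 (HSPH1) to 0.99 (HSPE1).

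Single cells were compared after each was thinned to 1000 UMIs, which left out 77.0% of the MM.1S cells of the coculture, 1.95% of those in monoculture, and 51.7% and 52.5% of the HS-5 cells. Of the MM.1S cells, 36.2% of 3870 in monoculture held an HSP90AA1 UMI (34.7 to 37.7%), against 89.4% of 378 in coculture (85.9 to 92.3%), and of the HS-5 cells 98.2% of 1802 and 93.4% of 1001. Without thinning these shares were 60.4%, 83.1%, 98.7% and 92.7%, so MM.1S monoculture was lowest both ways. HSPH1 was found in 10.8% and 37.0% of MM.1S cells and in 37.3% and 23.0% of HS-5 cells (unthinned 23.8%, 29.8%, 43.1% and 24.98%). HSPE1 was found in 55.5% and 85.4% of MM.1S cells and in 29.5% and 60.1% of HS-5 cells (unthinned 77.2%, 61.3%, 26.8% and 54.3%). For HSPE1 the order in MM.1S cells turned with thinning. HSPA1B was found in 2.07% and 10.3% of MM.1S cells (unthinned 4.26% and 7.19%). HSPA1A was found in 0 of 3870, where the exact interval reaches 0.0953%, and in 1 of 378 (unthinned 0.127% and 0.122%).

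In MM.1S cells the share was higher in coculture for the 9 genes that reached 10 CPM, where it was higher for 60.6% of all 7838 such genes. HSPA1A, in 1 cell against none, had overlapping intervals. So did DNAJB1, at 6.72% in monoculture (5.95 to 7.55%) and 8.20% in coculture (5.64 to 11.4%). In HS-5 cells the share was higher in coculture for 4 of 10, against 46.2% of 8815 genes. Without thinning only 3 of the 10 shares were higher in MM.1S cells of the coculture, since those cells held fewer UMIs: HSPA8, for example, was found in 37.1% of unthinned monoculture cells and 26.8% of unthinned coculture cells. The median thinned MM.1S cell held 5 UMIs of the 10 genes in monoculture and 14 in coculture, and the median HS-5 cell 12 and 10. Without HSP90AA1 the medians were 5 and 11 in MM.1S cells and 5 and 6 in HS-5 cells, so the lower HS-5 value for the 10 genes was that of HSP90AA1. The variance of the summed UMIs was 2.24 and 2.85 times the mean in MM.1S cells and 1.93 and 1.68 times in HS-5 cells.

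**Figure D4:**
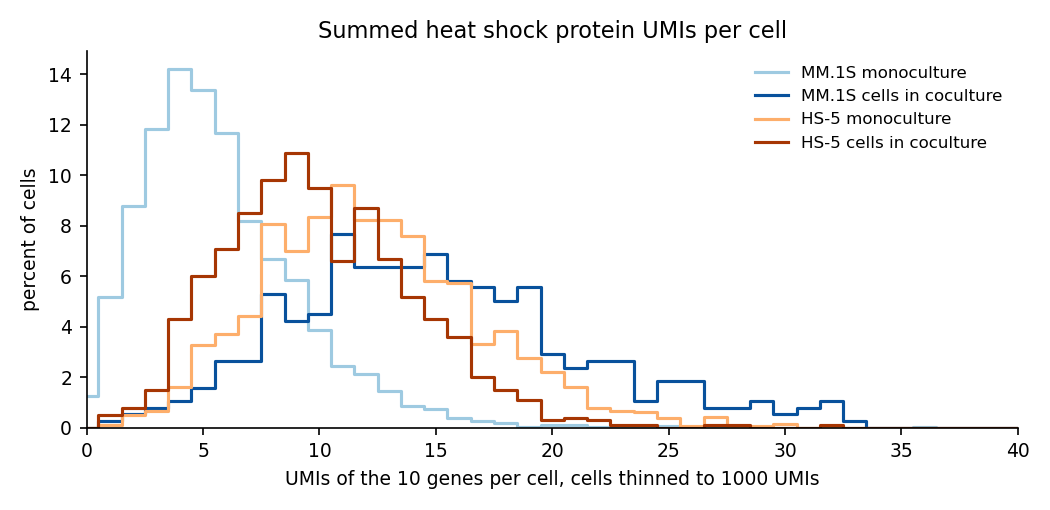
Percent of cells (y axis) by the number of UMIs of the 10 genes (x axis), for cells thinned to 1000 UMIs. The MM.1S cells in monoculture have a median of 5 UMIs and those in coculture a median of 14, and the HS-5 curves overlap with medians of 12 and 10.

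Across single cells the 10 genes were only weakly related, and in such sparse counts these values are a description. Over pairs of the 10 genes, Pearson's r of log(1 + UMI) had a median of 0.07 in MM.1S monoculture, 0.05 in MM.1S cells of the coculture and 0.01 in both groups of HS-5 cells. The lowest was that of HSPE1 with HSP90AA1 in HS-5 monoculture, at -0.23 over 1802 cells, and the highest that of HSPD1 with HSP90AB1 in MM.1S cells of the coculture, at 0.25 over 378 cells. The genes most like the sum of HSPA1A, HSPA1B, DNAJB1 and HSPH1 were HSPB1 (0.13), PTTG1, HSPE1, HIST1H1E and HMGB2 in MM.1S monoculture and HSP90AA1 (0.11), CDC20, MPP6, IWS1 and ZC3H15 in HS-5 monoculture. Those most like HSPD1 plus HSPE1 were HSP90AB1 (0.20), H2AFZ, STMN1, PTMA and HMGB2 in MM.1S monoculture over 3870 cells and TMSB4X (0.18), LDHB, COX6A1, SLC25A5 and MT-CO1 in HS-5 monoculture.

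Since depth differed between the libraries, levels were also compared within ranges of UMIs per cell, a step chosen after seeing the data. In MM.1S cells with 1000 to 1999 UMIs, HSP90AA1 was at 443 CPM in monoculture (1602 cells) and 3283 CPM in coculture (328 cells), a log2 ratio of 2.89 (2.77 to 3.0). In cells with 2000 UMIs and more, it was at 571 and 3094 CPM, with a log2 ratio of 2.44 (2.29 to 2.58). HSPH1 was 2.19 and 2.18 in the same ranges, HSPE1 1.52 and 1.6 and HSPA1B 2.10 and 2.30. The cells within a range still differed in depth: those with 2000 UMIs and more had a mean of 3496 UMIs in monoculture and 2669 in coculture (50 cells), and those with 1000 to 1999 had 1518 and 1333. The range from 500 to 999 UMIs held 819 of the coculture's MM.1S cells and 77 of the monoculture, with means of 703 and 947 UMIs. There HSP90AA1 was 2.88 (2.39 to 3.41), HSPH1 2.48 and HSPE1 2.15, while HSPA1B was 0.36 (-0.84 to 1.87) and DNAJB1 -1.19 (-2.02 to -0.30). The monoculture values of these 2 genes rest on 6 and 16 UMIs in that range.

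Within the HS-5 monoculture, levels differed with the depth of the cells. HSPE1 was at 147 CPM in HS-5 monoculture cells with 500 to 999 UMIs, 229 CPM in those with 1000 to 1999 and 806 CPM in those with 2000 and more. HSP90AA1 ran the other way, from 8862 CPM over 7517 to 4759 CPM. In the HS-5 cells of the coculture the same ranges held 871, 994 and 1346 CPM of HSPE1 and 4604, 3910 and 3151 CPM of HSP90AA1. The log2 ratio of HSPE1 in HS-5 cells was thus 2.55 (2.32 to 2.82) in cells with 500 to 999 UMIs. It was 2.11 (1.94 to 2.30) in those with 1000 to 1999 and 0.74 (0.64 to 0.85) in those with 2000 and more. HSPA8 in HS-5 cells had a log2 ratio of 0.15 (-0.19 to 0.48) with 500 to 999 UMIs, -0.13 (-0.37 to 0.10) with 1000 to 1999 and -1.11 (-1.35 to -0.87) with 2000 and more. In the first 2 of these ranges the interval held 0. In the third, the cells had a mean of 4490 UMIs in monoculture and 2830 in coculture, and HSPA8 in the monoculture was itself higher with depth (178, 272 and 456 CPM in the 3 ranges). The 217 HS-5 monoculture cells with under 500 UMIs did not follow these orders. They held 294 CPM of HSPE1, 7278 CPM of HSP90AA1 and 294 CPM of HSPA8. The log2 ratio of HSPE1 in HS-5 cells with under 500 UMIs was 1.03 (0.39 to 1.71).

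**Figure D5:**
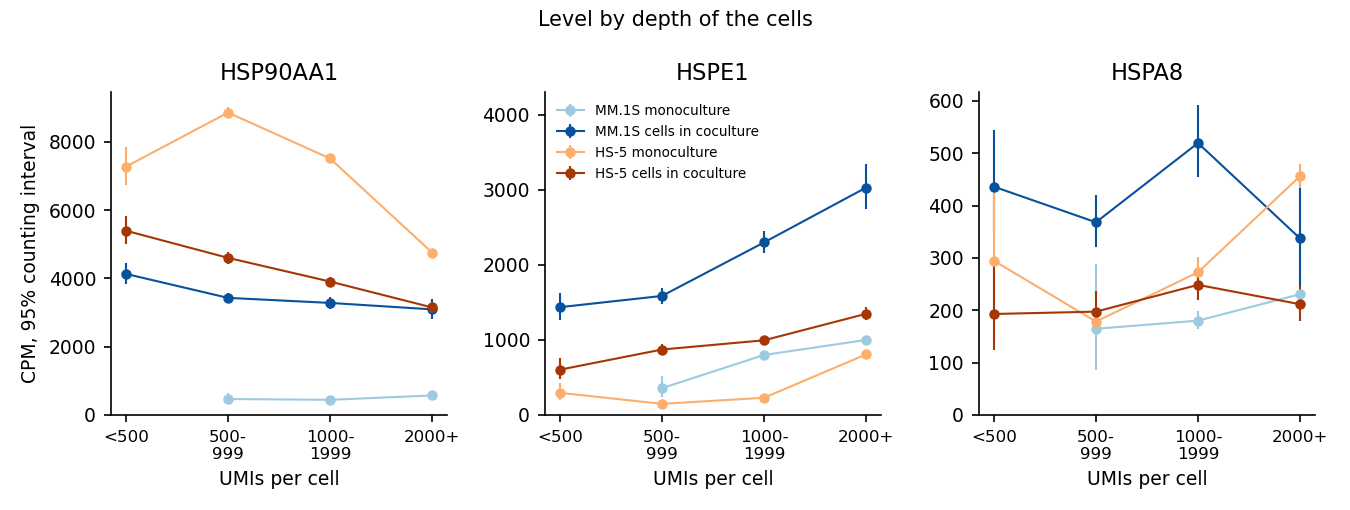
Level in CPM of HSP90AA1, HSPE1 and HSPA8 (y axes) by the number of UMIs per cell (x axis) in the 4 groups, with 95% counting intervals, where no MM.1S monoculture cell had under 500 UMIs. In HS-5 monoculture HSPE1 is at 806 CPM and HSP90AA1 at 4759 CPM in the deepest cells, against 147 and 8862 CPM in those with 500 to 999 UMIs.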

How the data were processed

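MM.1S cells, HS-5 cells and their coculture were sequenced by Drop-seq, 1 library each. The authors deposited whole-number UMI counts per gene and cell barcode, not normalized. The submitters' processing notes name Cell Ranger 3.0.2, UMI-tools 1.0.0, STAR 2.5.3a, Subread featureCounts 1.6.4, SAMtools 1.9 and GRCh38, without their roles, and the methods name Seurat for the analyses; the annotation and the choice of barcodes are not given in the sources used here. The labels state about 4000 cells per condition, and the tables hold 3994, 3865 and 3963 barcodes, of which 3947, 3732 and 3856 with at least 200 genes were kept.

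Coculture cells were split by the line-specific genes (at least 50 CPM in their own monoculture): a cell with a share of HS-5-specific among line-specific UMIs under 0.2 was MM.1S, over 0.8 HS-5, and between them a doublet. Doublets within a line were not removed. UMIs were summed per group and scaled to CPM, and log2 ratios take a pseudocount of 1 CPM. Ratio intervals are exact binomial intervals conditional on the sum of both counts and take no pseudocount. Thinning drew UMIs without replacement. Python 3.11.15, numpy 2.4.6 and scipy 1.17.1 were used, and the steps were tested on simulated data.

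The genes and lists were chosen with earlier results of these data known. Named by rule are the 10 genes, the 2 highest and 2 lowest coculture-over-monoculture ratios of each list in each line, and the 5 genes most like each sum over the monoculture cells of each line (genes with a UMI in at least 5% of cells). Other called genes, HSPA5, HSPA6, HSF1 and the HS-5 value of HSPA9 were named after their values were seen. Alternatives covered cell limits, scaling, pseudocount, line-specific genes, doublet limits, free RNA, transcript length, pseudogenes, depth and the sum without HSP90AA1.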

Additional observations from a re-analysis of the deposited data

Results flagged for a closer look

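HSPA8, HSPH1 and HSP90AA1 had ratios of opposite sign in the 2 lines, with intervals that did not hold 0. The log2 ratio of coculture over monoculture of HSPA8 was 0.95 in MM.1S cells and -0.67 in HS-5 cells, that of HSPH1 2.12 and -0.72, and that of HSP90AA1 2.67 and -0.68. The difference between the lines was not tested, since each condition has 1 library. In HS-5 cells with 500 to 999 UMIs the ratio of HSPA8 was 0.15, while those of HSPH1 (-0.75) and HSP90AA1 (-0.94) were below 0 in that range.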

How the results depend on the processing

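The median log2 ratio of the heat shock proteins in MM.1S cells, 1.04 as reported, ran from 0.55 to 1.18 over 14 alternatives, and from 0.72 to 0.97 relative to the median of all genes. It was 1.15 with at least 500 genes per cell, 0.95 with 200 to 2500 genes and under 5% mitochondrial UMIs (which kept 1113 of 3947 MM.1S monoculture cells), 0.55 with median-of-ratios factors, 0.87 with totals without ribosomal and mitochondrial genes, and 1.18 in cells with at least 1000 UMIs. In HS-5 cells it stayed between 0.02 and 0.11. Between monocultures, 0.40 as reported, it was 0.17 with 200 to 2500 genes and under 5% mitochondrial UMIs, -0.061 with median-of-ratios factors, 0.14 without ribosomal and mitochondrial genes and 0.22 with the trend of transcript length removed. HSPA1B, HSPH1 and HSP90AA1 were past 1 in MM.1S cells in all 14 alternatives, HSPB1 in 11, HSPE1 in 10 and HSPA8 in 4. HSPE1 in HS-5 cells was past 1 in 3 of 14 (0.85 to 1.74). Left without HSP90AA1, the sum of the genes had a log2 ratio of 0.99 in MM.1S cells (1.25 with it), 0.12 in HS-5 cells (-0.24) and 0.037 between monocultures (0.97). HSPA1A in MM.1S cells, 0.76 as reported, was -1.01 with cells thinned to 500 UMIs. In another draw to 500 UMIs, 0% of 3947 monoculture cells and 0.0835% of 1197 coculture cells held a UMI of it. The cause of the -1.01 was not tested. With at least 500 genes the coculture held 754 MM.1S cells and 65 doublets, and doublet limits of 0.1 and 0.9 gave 295 doublets. The number of the 10 genes with a higher share of cells in coculture was 3 without thinning in MM.1S cells, and 7 at 500 UMIs and 2 without thinning in HS-5 cells. Of 36 list medians, 35 kept their direction at a minimum of 50 CPM. The addition of pseudogenes, the limit of 1000 UMIs, the sum without HSP90AA1 and the ranges of depth were chosen after seeing the data. No paired analysis was possible because each group has 1 library and the labels carry no replicate numbers. Depth limits HSPA1A in MM.1S cells, with 5 and 2 UMIs.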

Other observations

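UMIs assigned to pseudogenes named after the heat shock proteins were few beside those of the genes. The 3 pseudogenes named after HSP90AA1 summed to 7.0 CPM in MM.1S monoculture, 94.1 CPM in MM.1S cells of the coculture, 123 CPM in HS-5 monoculture and 117 CPM in HS-5 cells of the coculture, most of it HSP90AA2P. The 15 named after HSPD1 summed to 21.0, 63.3, 31.3 and 39.1 CPM in the same order, and the 24 named after HSPE1 to 18.3, 28.6, 8.63 and 14.5 CPM.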
